A study of Mus musculus with 8 samples.

Results

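The collagen genes of the mouse were the 44 protein-coding genes of the GENCODE annotation of mm10, among 21951 in all, whose names are Col, a number, the letter a and a number. A collagen window was the gene span with 20 kb on each side, and the value of a gene in a library was the number of FAIRE peaks touching that window. FAIRE-seq, formaldehyde-assisted isolation of regulatory elements with sequencing, recovers DNA that is not held in crosslinked protein, and a FAIRE peak is a stretch that the peak caller of the study scored as accessible chromatin. The 44 genes were divided by the structure of their products into 11 fibrillar collagens, 8 basement membrane collagens (the type IV chains with *Col15a1* and *Col18a1*) and 25 others, which comprised fibril-associated, beaded filament, short-chain, transmembrane, anchoring fibril and minor collagens.

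Collagens are the structural proteins of the extracellular matrix, built from chains wound around each other and joined outside the cell into fibrils, sheets or filaments. In the mammary gland the ducts rest on a basement membrane of type IV collagen, and stromal cells around it deposit the fibrils of collagens I, III and V. Epithelial cells that undergo epithelial-mesenchymal transition (EMT) are known to lay down more matrix, and TGF-β is a classical inducer of collagen transcription in fibroblasts.

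The libraries came from EpH4 cells, a mouse mammary gland epithelial line without active H-Ras, and from EpRas cells, their derivative transformed with H-Ras. Each line was left untreated or cultured with 1 ng/ml TGF-β3 for 8 days, which gave 4 groups of 2 libraries, 8 in all. The comparison of EpRas with EpH4 cells was therefore between 1 transformed derivative and its parent, which were also grown at different serum concentrations, so that transformation, clone and serum cannot be told apart. The lists held 10821 to 17927 peaks in the EpH4 libraries and 13784 to 27337 in the EpRas libraries, the longest being EpRas with TGF-β, replicate 1. A peak within 2 kb of a start was found for 6 to 7 of 10 epithelial marker genes in the EpH4 libraries and for 1 to 4 in the EpRas libraries, with *Krt5* and *Epcam* lacking one throughout and *Krt14* holding one in all 8. Of 6 fibroblast markers, 0 or 1 had such a peak in a library, the 1 being *Pdgfra*, and none of the 4 blood cell or 4 endothelial markers had any. The epithelial markers thus moved with the line, and their part and that of list length in the collagen values below was not tested.

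Most collagen loci held accessible chromatin somewhere, but hardly any within 2 kb of their start sites. Of the 44 genes, 39 (88.6%) had a peak in at least 1 library, against 71.8% of all protein-coding genes, and 14 (31.8%) had one in all 8, against 29.3%. The mean number of peaks over the 8 libraries had a median of 1 for collagens and 0.75 for all protein-coding genes. Collagen windows were long, with a median of 154 kb against 57.4 kb, and per 100 kb of window the order turned, with a median of 0.592 peaks for collagens against 0.851 for all genes. A site that missed the peak caller's limit cannot be told from a closed one, since the lists hold no signal.

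**Figure D1:**
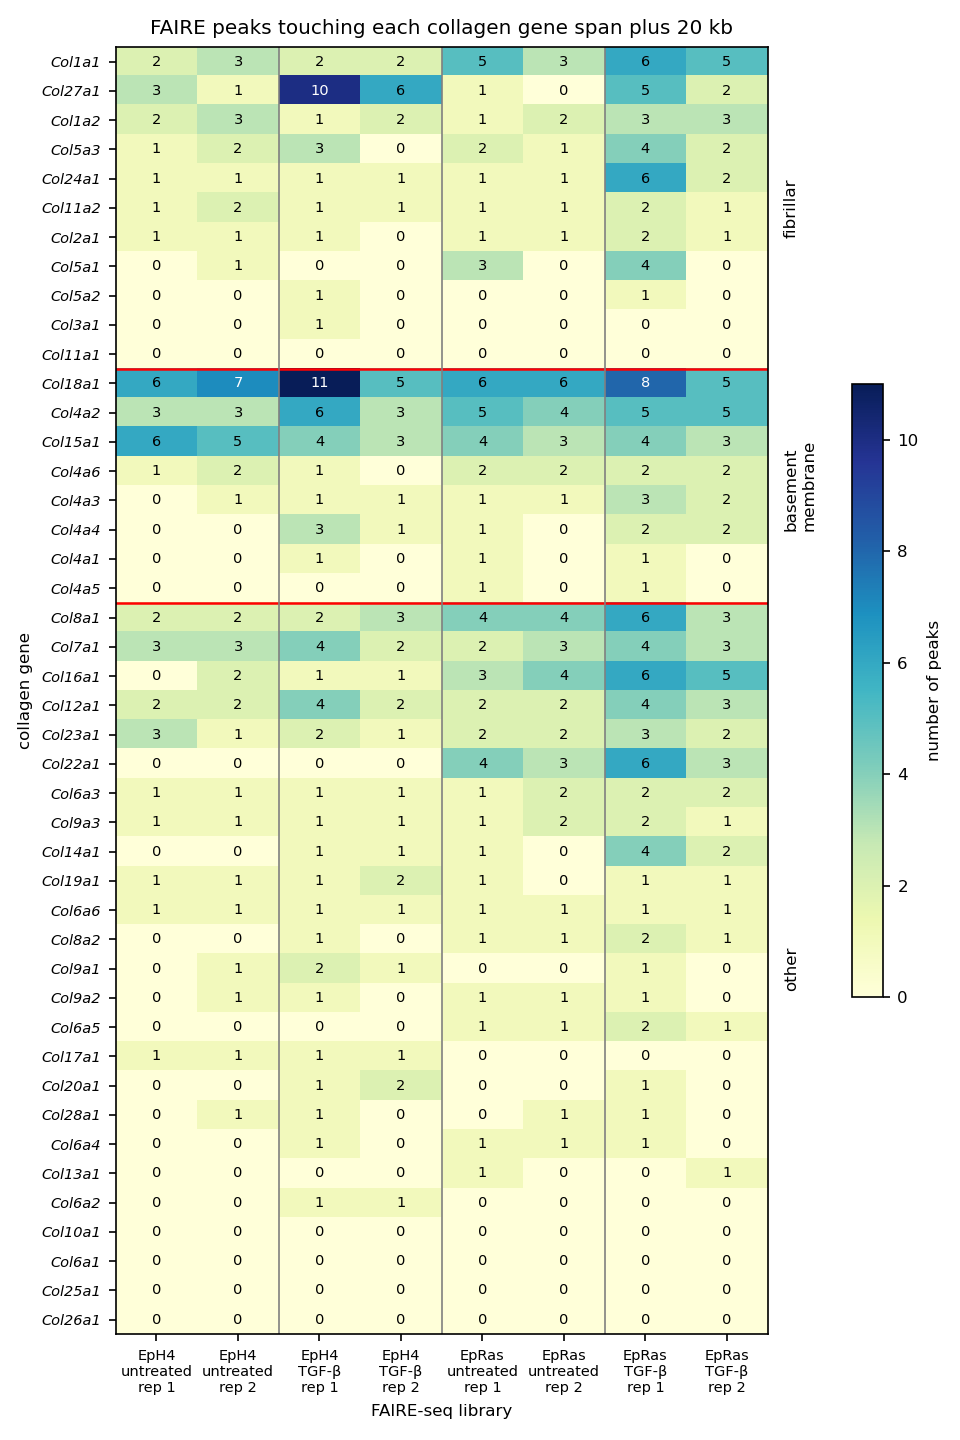
Number of FAIRE peaks touching each of the 44 collagen gene spans plus 20 kb (rows, grouped by class and ordered within it by the mean over libraries) in each of the 8 libraries (columns, with rep for replicate). The highest value is 11 for Col18a1 in EpH4 with TGF-β, replicate 1, and 5 genes are at 0 in all 8 libraries.

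None of the 44 collagens had a peak within 2 kb of an annotated start in all 8 libraries, while 10.6% of all protein-coding genes did. In any library, 6 collagens (13.6%) had a promoter peak, against 42.5% of all protein-coding genes. *Col12a1* and *Col14a1*, which encode fibril-associated collagens, each had one in 4 libraries. The *Col12a1* promoter was called in both TGF-β-treated EpH4 libraries and in replicate 1 of the untreated and of the treated EpRas cells, and the *Col14a1* promoter in EpH4 with TGF-β, replicate 2, EpRas untreated, replicate 1, and both treated EpRas libraries. *Col1a1*, encoding the main chain of collagen I, had a promoter peak only in replicate 1 of each EpRas group. Those of *Col15a1*, *Col18a1* and *Col7a1* were called in 2, 1 and 1 libraries. Just outside the limit, a region in *Col1a2* at chr6:4507375-4507714 was called in 7 libraries. Its midpoint lay 2.05 kb from a *Col1a2* start.

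The accessible sites of collagen loci lay mostly inside the genes, which also made up most of the window length. Windows had a median of 154 kb, of which the flanks were 20 kb on each side. Whether sites were denser inside the genes than in the flanks was not tested. The peaks of the 8 lists merged into 37230 regions, of which 148 touched a collagen window. Of these, 99 lay in the gene body, 28 upstream and 21 downstream. Of the gene body regions, 88 were intronic, 10 lay within 2 kb of a start of any annotated transcript, and 1 was in a coding exon. The 20 kb limit did not fall in an empty stretch, since 12 regions lay 15 to 20 kb from a collagen gene and 14 lay 20 to 25 kb from one. Collagen regions had a median length of 290 bp and were called in a median of 2 libraries, against 282 bp and 3 libraries for all regions.

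Regions called in every library made up 10.8% of collagen regions (16 of 148), near the 11.4% of all regions. They belonged to 12 genes, and 7 of the 16 lay at basement membrane collagens, 6 at other collagens and 3 at fibrillar ones. The highest scored was an intronic region of *Col15a1* at chr4:47310750-47311185, with a mean percentile of 93.2 among the scores of each list. *Col15a1* encodes a collagen between the basement membrane and the underlying stroma, and 3 of its intronic regions were called in all 8 libraries. *Col4a2*, one of the chains of the common type IV collagen, held regions of this kind in its introns at chr8:11346288-11346755 and chr8:11372090-11372468, with mean percentiles of 81.1 and 80.5. Of the 16 regions, 6 lay within 2 kb of a start, such as that of *Uqcrc1* upstream of *Col7a1* and that of *Phykpl* past the end of *Col23a1*. These always-open regions were named after their values were seen.

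Ras transformation was compared first, all 4 EpRas against all 4 EpH4 libraries. The windows of *Col22a1*, *Col16a1* and *Col6a5* held more peaks in every EpRas library than in any EpH4 library, and that of *Col17a1* held more in every EpH4 library. No fibrillar and no basement membrane collagen separated the lines. The 3 collagens that were higher in EpRas cells were 6.82% of the 44, beside 3.06% of all protein-coding genes, and the 1 that was higher in EpH4 cells was 2.27% beside 0.396%. Separation of this kind gave p = 0.0286 in the two-sided exact permutation test, the smallest p that 4 libraries against 4 can give, and after Benjamini-Hochberg adjustment over all genes the smallest adjusted p of this permutation test was 0.826, so that none passed the adjustment. The p-values measure the spread between these libraries. Each side joined 2 treated and 2 untreated libraries, so that this spread includes the one between treatments. Only the 2 libraries of a group are biological replicates by the study's methods. The median difference between the lines was 0.25 peaks for collagens and 0 for all protein-coding genes.

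*Col22a1* encodes a fibril-associated collagen known from tissue junctions such as those of muscle and tendon, and it lies on chr15:71795795-72034227, on the minus strand. Its window held 4 and 3 peaks in the untreated EpRas libraries, 6 and 3 in the TGF-β-treated ones, and 0 in each of the 4 EpH4 libraries. The mean was 4 ± 1.41 in EpRas cells and 0 in EpH4 cells (SD, n = 4 libraries). Every EpRas library was thus above every EpH4 library, with and without TGF-β. All peaks lay in introns, none closer than 5.70 kb to an annotated *Col22a1* start.

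Of the 7 collagen regions called in all EpRas and no EpH4 libraries, 3 were in *Col22a1*. They lay at chr15:71853293-71853598, chr15:71869834-71870191 and chr15:71917667-71917978, which was 101, 84.4 and 36.6 kb from the nearest *Col22a1* start. Over all protein-coding genes, 757 had at least 1 such region in their window and 9 had at least 3. The region at chr15:71853293-71853598 ranked at the 84.0 and 40.6 percentiles of the scores in the untreated EpRas lists and at 95.7 and 72.7 in the treated ones, replicates 1 and 2 in turn. The region at chr15:71917667-71917978 ranked at 67.1 and 46.1 in the untreated and at 65.5 and 79.3 in the treated lists. These were thus middle to high scored peaks, whereas that at chr15:71869834-71870191 fell to the 4.64 percentile in EpRas untreated, replicate 1.

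The sequences of the 300 bp around the midpoints of the best scored pair are given below their coordinates, since they carried the clearest difference between the lines at a collagen. They were read from the plus strand of the RefSeq GRCm38.p6 genome, the build of mm10, at chr15:71853296-71853595 (region A) and chr15:71917673-71917972 (region B). Capitals mark matches of the AP-1 motif TGAGTCA.
Col22a1 region A: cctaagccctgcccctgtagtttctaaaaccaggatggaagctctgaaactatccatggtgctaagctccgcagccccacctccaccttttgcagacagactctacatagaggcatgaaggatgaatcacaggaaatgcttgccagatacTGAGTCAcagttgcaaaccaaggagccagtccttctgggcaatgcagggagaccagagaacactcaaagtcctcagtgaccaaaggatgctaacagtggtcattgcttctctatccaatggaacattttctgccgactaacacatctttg
Col22a1 region B: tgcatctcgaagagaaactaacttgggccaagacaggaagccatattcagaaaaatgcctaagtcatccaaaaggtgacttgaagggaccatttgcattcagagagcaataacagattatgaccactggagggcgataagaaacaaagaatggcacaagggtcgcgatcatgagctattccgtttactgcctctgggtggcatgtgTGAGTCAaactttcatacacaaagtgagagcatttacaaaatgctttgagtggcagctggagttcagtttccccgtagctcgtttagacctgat
Each held 1 match, which began at base 151 of region A and base 207 of region B.

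*Col16a1*, which encodes a fibril-associated collagen that integrins on epithelial cells and fibroblasts can bind, lies on chr4:130047840-130099283. Its window held 3 and 4 peaks in untreated and 6 and 5 in TGF-β-treated EpRas libraries, against 0 and 2 in untreated and 1 and 1 in treated EpH4 libraries. The means were 4.5 ± 1.29 and 1 ± 0.816 (SD, n = 4 libraries), and the lines did not overlap. An intronic region 2.82 kb from its start, at chr4:130050488-130050835, was called in all EpRas and no EpH4 libraries. Another region of this pattern, at chr4:130107413-130107664, lay 8.26 kb past the end of the gene and 0.018 kb from a start of *Pef1*, a calcium-binding protein gene, so that the window also counts sites of a neighbour.

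Beside these, another region in *Col16a1*, at chr4:130074893-130075461, was called in all EpRas libraries and in 3 of the 4 EpH4 libraries. Its score percentile was 54.9 to 88.0 in the EpRas lists, and 18.4 to 39.9 where it was called in EpH4 lists. Chromosome 4 held 6.92% of the EpRas peaks and 5.71% of the EpH4 peaks on average, without overlap. Per 1000 listed peaks on the same chromosome, the lines overlapped at *Col16a1* and the call was lost, while those of *Col22a1* and *Col6a5* were kept.

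*Col6a5* encodes one of the collagen VI chains, which form beaded filaments around cells. Its window held 1 and 1 peaks in untreated and 2 and 1 in treated EpRas libraries and 0 in every EpH4 library. The call rested on 1 intronic region, at chr9:105923705-105924027, which ranked as low as the 1.29 percentile in EpRas untreated, replicate 1. With equal numbers of peaks per list, each cut to its 10821 best scored, *Col6a5* lost the call, and *Col22a1* and *Col16a1* kept it. Among the peaks scored at or above the median of all lists, the call was kept at *Col16a1* alone.

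*Col17a1* encodes a transmembrane collagen of the hemidesmosome, which ties basal epithelial cells to the basement membrane. Its window held 1 peak in each of the 4 EpH4 libraries and 0 in each of the 4 EpRas libraries. The peak formed 1 region at chr19:47710281-47710706, 18.4 kb upstream of *Col17a1* and 0.373 kb from a start of *Gm26085*, a predicted gene. It was the only collagen region called in all EpH4 and no EpRas libraries, at percentiles of 32.3 and 55.9 in the untreated and 54.6 and 1.22 in the TGF-β-treated EpH4 lists. *Col17a1* itself had 0 peaks in its span, and the call was lost with the gene span alone and with 50 kb on each side.

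The 300 bp around the midpoint of this region, chr19:47710344-47710643 on the plus strand of GRCm38.p6, are given as the counterpart from EpH4 cells. They held no match to the motifs searched.
Col17a1 upstream region: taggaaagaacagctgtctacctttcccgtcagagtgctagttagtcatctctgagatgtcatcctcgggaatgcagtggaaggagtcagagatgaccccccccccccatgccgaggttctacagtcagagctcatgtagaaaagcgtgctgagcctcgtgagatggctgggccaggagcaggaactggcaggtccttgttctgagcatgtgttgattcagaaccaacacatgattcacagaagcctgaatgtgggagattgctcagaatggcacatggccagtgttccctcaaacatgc

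The remaining EpRas-only region, at chr4:126321647-126321937, was 7.46 kb past the end of *Col8a2* and 0.089 kb from a start of *Adprhl2*. This region and that of *Col6a5* ranked below the 5 best scored of the pattern and were named because the pattern had only 7 members. Together the 7 regions were 4.73% of the collagen regions, beside 1.98% of all regions, and all lay at the other collagens. The EpH4-only region was 0.676%, beside 0.752%. With equal numbers of peaks the EpRas-only count fell to 2, both in *Col22a1*, and among the higher-scored peaks it was 1, within the region at chr4:130074893-130075461 of *Col16a1*.

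**Figure D2:**
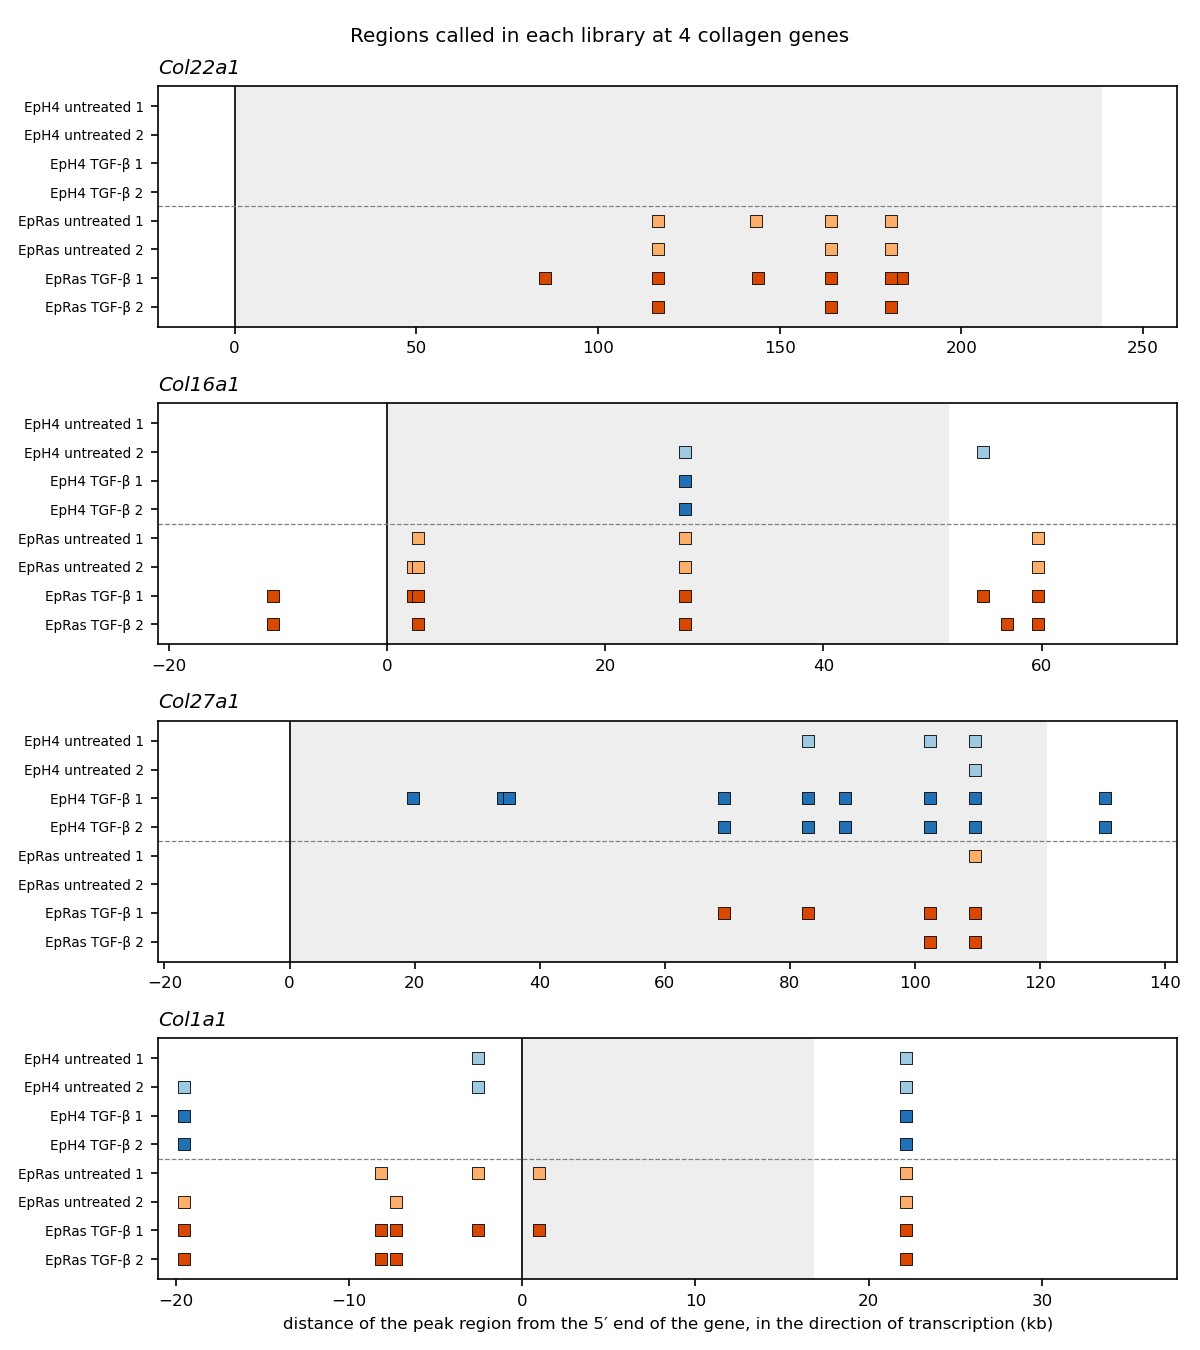
Position of each merged region in the windows of Col22a1, Col16a1, Col27a1 and Col1a1, as distance in kb from the 5′ end of the gene in the direction of transcription, with a square in the row of each library that called it; grey marks the gene span and the dashed line divides the lines. Col22a1 holds squares in the 4 EpRas rows alone, and the 4 untreated rows of Col27a1 hold fewer squares than the treated rows of the same line.

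Some collagens came close to separating the lines. *Col1a1* had 5 and 3 peaks in untreated and 6 and 5 in treated EpRas libraries, against 2 and 3 in untreated and 2 and 2 in treated EpH4 libraries. The lines met at 3 peaks (exact permutation p = 0.0571, 4 libraries against 4), and they separated without EpH4 untreated, replicate 2, or EpRas untreated, replicate 2. The difference of 2.5 peaks fell to 0.5 with equal numbers of peaks per list, with higher-scored peaks and with the gene span alone. Upstream of *Col1a1*, the region at chr11:94927792-94928362 was called in 3 EpRas libraries and that at chr11:94928802-94929129 in 3, with no EpH4 library in either. A further region 5.33 kb past the gene, 0.403 kb from a start of *Gm24877*, was called in all 8. *Col1a1* had the most peaks per length of the collagens, 6.16 per 100 kb of window on average. Its gene span was 16.8 kb, and of 3.5 peaks on average 0.25 touched it, so that most lay in the flanks.

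*Col8a1*, which encodes a short-chain collagen of vessel walls, had 4 and 4 peaks in untreated and 6 and 3 in treated EpRas libraries, against 2 and 2 in untreated and 2 and 3 in treated EpH4 libraries. The lines again met at 3 peaks (exact permutation p = 0.0571), and they separated with 50 kb on each side, without EpH4 TGF-β, replicate 2, or without EpRas TGF-β, replicate 2. The difference of 2 peaks turned to −1 with equal numbers of peaks per list and to −0.5 with higher-scored peaks, with fewer peaks in EpRas cells. The partner of *Col1a1* in collagen I, *Col1a2*, showed no such difference, with 1 to 3 peaks in both the EpRas and the EpH4 libraries.

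**Figure D3:**
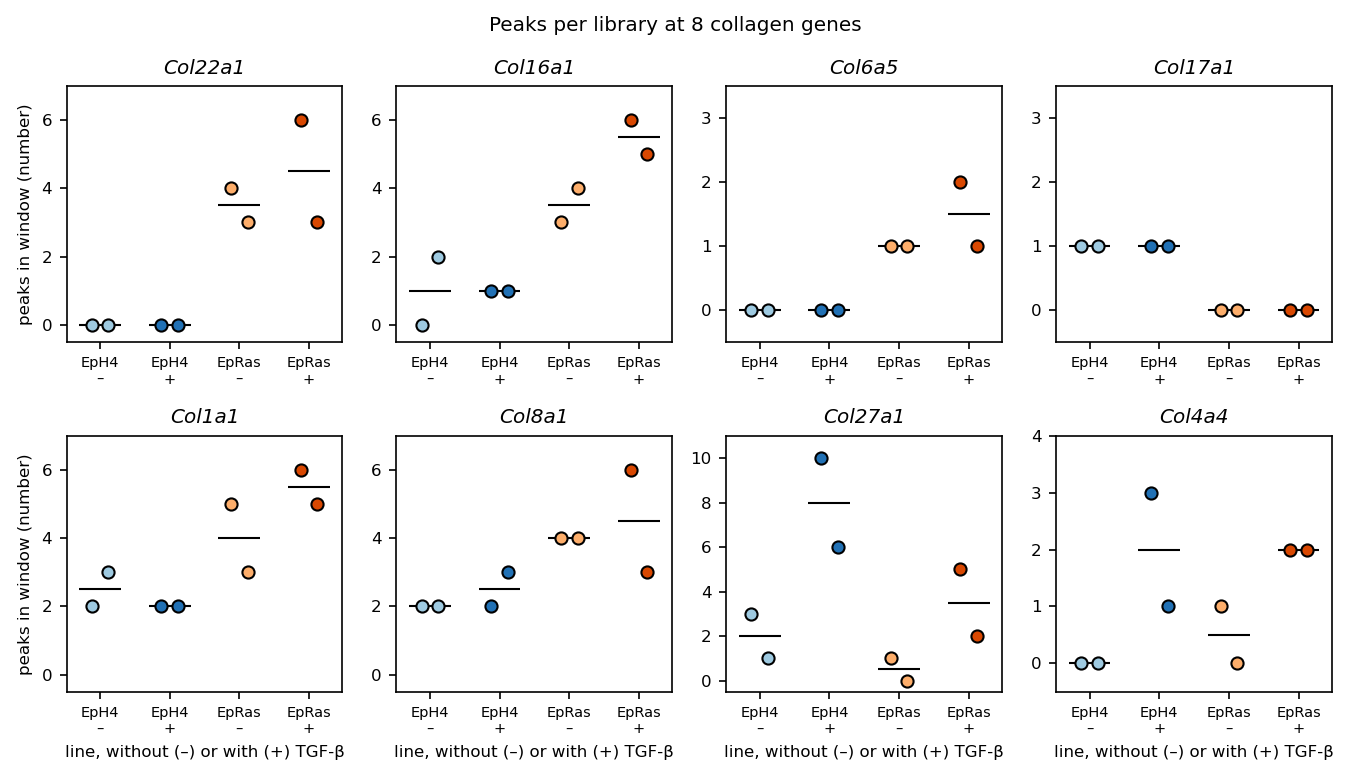
Peaks in the window of 8 collagen genes (number, linear axis) in each library, as 1 point per library with a bar at the mean of the 2 libraries of a group, for EpH4 and EpRas cells without (–) and with (+) TGF-β. The upper row shows the 4 genes whose EpH4 and EpRas libraries do not overlap, and the lower row Col1a1, Col8a1, Col27a1 and Col4a4, whose libraries overlap in every comparison of 4 against 4.

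TGF-β was compared next, all 4 treated against all 4 untreated libraries. No collagen had more peaks in every treated than in every untreated library, and none had fewer, beside 0.282% and 0.0319% of all protein-coding genes. By the exact permutation test, 0 collagens had an unadjusted p under 0.05, and over all genes the smallest adjusted p was 1. The median difference was 0.25 peaks for collagens and 0 for all protein-coding genes. The highest differences belonged to *Col27a1*, at 4.5 peaks, and to *Col4a4* and *Col14a1*, at 1.75 peaks each.

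*Col27a1*, which encodes a fibrillar collagen known from cartilage, lies on chr4:63214004-63334991. In EpH4 cells its window held 3 and 1 peaks untreated and 10 and 6 with TGF-β, and in EpRas cells 1 and 0 untreated and 5 and 2 with TGF-β. Within each line both treated libraries were above both untreated ones, but treated EpRas replicate 2, with 2 peaks, lay below untreated EpH4 replicate 1, with 3. The means were 5.75 ± 3.30 treated and 1.25 ± 1.26 untreated (SD, n = 4 libraries), with an exact permutation p of 0.0571. Without EpH4 untreated, replicate 1, or without EpRas TGF-β, replicate 2, treated and untreated libraries did not overlap.

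The regions of *Col27a1* that both treated EpH4 libraries called lay in the downstream part of the gene or past it. The intronic region at chr4:63283315-63283637 was called in both treated EpH4 libraries and in treated EpRas replicate 1 and in no untreated library. That at chr4:63302662-63302964 was called in the treated EpH4 libraries alone, at percentiles of 94.9 and 33.3. A last region, at chr4:63344241-63344550, had the same pattern but lay 9.40 kb past the gene and 0.165 kb from the start of *Orm1*, which encodes an acute-phase plasma protein. By contrast, the region at chr4:63323418-63323802 was called in every library but EpRas untreated, replicate 2.

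*Col4a4*, a type IV chain known from the kidney and other specialised basement membranes, had 0 and 0 peaks untreated and 3 and 1 treated in EpH4 cells, and 1 and 0 untreated and 2 and 2 treated in EpRas cells. Of 1.125 peaks on average in its window, 0.25 touched the gene span. The others lay in the flanks, in an intron of *Rhbdd1* 19.1 kb past the gene and in an intron of *Col4a3*. The *Col4a4* libraries met at 1 peak (exact permutation p = 0.0571). They did not overlap per 10000 listed peaks, per 1000 listed peaks on the same chromosome, with equal numbers of peaks per list, without EpH4 TGF-β, replicate 2, or without EpRas untreated, replicate 1. *Col14a1* had 0 and 0 untreated and 1 and 1 treated in EpH4 cells, and 1 and 0 untreated and 4 and 2 treated in EpRas cells (exact permutation p = 0.0857), and its libraries did not overlap per 1000 listed peaks on the same chromosome or without EpRas untreated, replicate 1. *Col4a4* and *Col14a1* were described after their values were seen.

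Within a line, 2 libraries stood against 2, where the smallest p of the exact permutation test is 0.333, so the following counts are descriptions. In EpH4 cells, 5 collagens (11.4%) had more peaks in both treated than in both untreated libraries, beside 4.4% of all protein-coding genes. They were *Col4a4*, *Col6a2*, *Col14a1*, *Col20a1* and *Col27a1*, and the 1 that had fewer (2.27%, beside 2.35%) was *Col15a1*, with 6 and 5 peaks untreated and 4 and 3 treated. In EpRas cells, 8 collagens (18.2%) had more peaks in both treated libraries, beside 8.61% of all genes, and 0 had fewer, beside 0.911%. The 8 comprised *Col4a3*, *Col4a4*, *Col12a1*, *Col14a1*, *Col16a1*, *Col1a2*, *Col24a1* and *Col27a1*. Those of *Col4a3* and *Col4a4* were not independent. The region at chr1:82599212-82599493 lay in both windows, was called in both treated and no untreated EpRas libraries, and counted for each gene. Collagen windows were longer than those of most genes, and the part of this in the counts was not tested. *Col24a1*, a fibrillar collagen gene, had 1 peak in each of 6 libraries and 6 and 2 peaks in the treated EpRas libraries.

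No collagen region was called in all treated and no untreated libraries, or the reverse, beside 0.32% and 0.0188% of all regions. In both treated EpRas libraries alone, 4 collagen regions were called, 2.70% beside 4.21% of all regions. They lay in introns of *Col14a1* (chr15:55380100-55380348) and *Col24a1* (chr3:145307264-145307513), in *Col6a3* 0.283 kb from a start of *Gm36970* (chr1:90838735-90838965), and 10.5 kb upstream of *Col16a1* (chr4:130037197-130037513). Treated EpRas replicate 1 alone called 25 of the 49 collagen regions seen in a single library, and without replicate 2 the count of 4 became 29. None of these 4 had the pattern with equal numbers of peaks per list or among the higher-scored peaks. In both treated EpH4 libraries alone, 6 collagen regions were called, 4.05% beside 0.86% of all regions, and these were examined after their values were seen. Of the 6, 2 were at *Col27a1* and 1 each at *Col6a2*, *Col18a1*, *Col20a1* and *Col4a4*. Regions seen in a single library were 33.1% of the collagen regions and 31.6% of all regions.

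*Col6a2* encodes a principal chain of collagen VI. Its window held 1 peak in each treated EpH4 library and 0 in the other 6. The peak lay 10.6 kb upstream of the gene, at chr10:76634040-76634353, and ranked at the 57.0 and 74.4 percentiles.

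The 300 bp around the midpoints of the best scored regions of both TGF-β patterns are given from the plus strand of GRCm38.p6, with matches of the AP-1 motif TGAGTCA or the RUNX motif TGTGGTT in capitals. They were at chr15:55380075-55380374 for *Col14a1*, chr3:145307239-145307538 for *Col24a1*, chr10:76634047-76634346 for *Col6a2* and chr4:63302664-63302963 for *Col27a1*. The first pair was called in treated EpRas and the second in treated EpH4 cells.
Col14a1 intron region: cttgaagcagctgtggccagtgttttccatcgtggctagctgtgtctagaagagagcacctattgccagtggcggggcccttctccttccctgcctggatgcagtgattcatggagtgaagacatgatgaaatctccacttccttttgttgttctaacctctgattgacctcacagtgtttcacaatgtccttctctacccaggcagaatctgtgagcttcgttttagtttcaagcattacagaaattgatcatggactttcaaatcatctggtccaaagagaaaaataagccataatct
Col24a1 intron region: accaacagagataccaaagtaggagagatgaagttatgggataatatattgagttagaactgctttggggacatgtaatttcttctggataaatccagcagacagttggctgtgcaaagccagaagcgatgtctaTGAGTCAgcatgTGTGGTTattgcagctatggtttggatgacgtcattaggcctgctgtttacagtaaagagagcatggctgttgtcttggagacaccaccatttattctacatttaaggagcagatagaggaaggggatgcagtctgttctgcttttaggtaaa
Col6a2 upstream region: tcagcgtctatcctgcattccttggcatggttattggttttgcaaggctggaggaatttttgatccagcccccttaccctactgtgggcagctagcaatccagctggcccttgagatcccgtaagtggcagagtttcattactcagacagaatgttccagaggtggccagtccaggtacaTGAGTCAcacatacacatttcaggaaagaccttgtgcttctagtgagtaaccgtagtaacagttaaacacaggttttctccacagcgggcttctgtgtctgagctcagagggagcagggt
Col27a1 intron region: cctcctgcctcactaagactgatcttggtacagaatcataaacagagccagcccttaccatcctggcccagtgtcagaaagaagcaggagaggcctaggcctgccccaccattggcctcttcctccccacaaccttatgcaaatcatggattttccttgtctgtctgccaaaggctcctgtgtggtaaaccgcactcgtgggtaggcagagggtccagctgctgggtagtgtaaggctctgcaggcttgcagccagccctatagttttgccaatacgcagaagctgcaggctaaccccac
The *Col24a1* window held 1 AP-1 and 1 RUNX match, the *Col6a2* window 1 AP-1 match, and those of *Col14a1* and *Col27a1* none.

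Motif matches were counted over all collagen regions in the same way, in 300 bp windows and on both strands, with TGAGTCA for AP-1, CCGGAA for ETS, TGTGGTT for RUNX and GTCTAGAC for SMAD. No motif contains another. Of the 116 collagen regions more than 2 kb from a start, 60 (51.7%) held the AP-1 motif, against 44.2% of the 25424 such regions genome-wide. The RUNX motif was in 12.1% against 14.0%, the ETS motif in 5.17% against 4.80% and the SMAD motif in 0 against 0.346%. The AP-1 motif was in 4 of the 7 EpRas-only regions, in 3 of the 4 called in treated EpRas cells alone, in 3 of the 6 called in treated EpH4 cells alone and in 9 of the 16 called in all libraries. These counts include regions near a start, and the motif was in 44.6% of all 148 collagen regions and 34.7% of all regions. The ETS motif was in 3 of the 7 EpRas-only regions, of which 2 lay near the starts of *Pef1* and *Adprhl2*, and in 9.46% of all collagen regions against 11.5% of all regions. A match describes the letters of a window and is no evidence of binding.

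The classes of collagen were compared by the peaks in their windows per 10000 listed peaks, which allows for the length of the lists. Over all 44 genes this was 37.8 ± 0.989 in EpRas and 38.4 ± 3.43 in EpH4 cells (SD, n = 4 libraries), a log2 ratio of −0.023. With TGF-β it was 39.5 ± 1.79 against 36.7 ± 2.18 untreated, a log2 ratio of 0.10. The ranges of the libraries overlapped in both comparisons. Within EpH4 cells, both treated libraries (40.2 and 41.6) lay above both untreated ones (33.7 and 38.2), while in EpRas cells they overlapped. Per Mb of window the collagens held 5.49 peaks per 10000, the same as all protein-coding windows at 5.49.

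Basement membrane collagens had the densest windows, at 8.19 peaks per 10000 and Mb, followed by fibrillar collagens at 6.68 and other collagens at 4.07. The other collagens were lowest in 7 of the 8 libraries, and basement membrane stood above fibrillar collagens in 7 of the 8. The basement membrane density came from a few genes, since *Col18a1*, the gene of the collagen that releases endostatin, had 5 to 11 peaks in each library, *Col4a2* 3 to 6 and *Col15a1* 3 to 6. *Col18a1* separated the lines once scaled to 10000 listed peaks, with more in EpH4 cells, and *Col15a1* did so too per 1000 peaks of the chromosome. *Col4a1*, the head-to-head neighbour of *Col4a2*, had 0 or 1. Medians over genes gave another order, with 1.45 peaks per 100 kb for fibrillar, 0.672 for basement membrane and 0.554 for other collagens. The fibrillar median was the value of *Col2a1*, whose gene span held 0 peaks. Fibrillar windows were shorter, with a median of 85.0 kb against 176 kb for basement membrane and 145 kb for other collagens. Their 20 kb flanks thus weighed more, and the part of the flanks in this order was not tested.

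**Figure D4:**
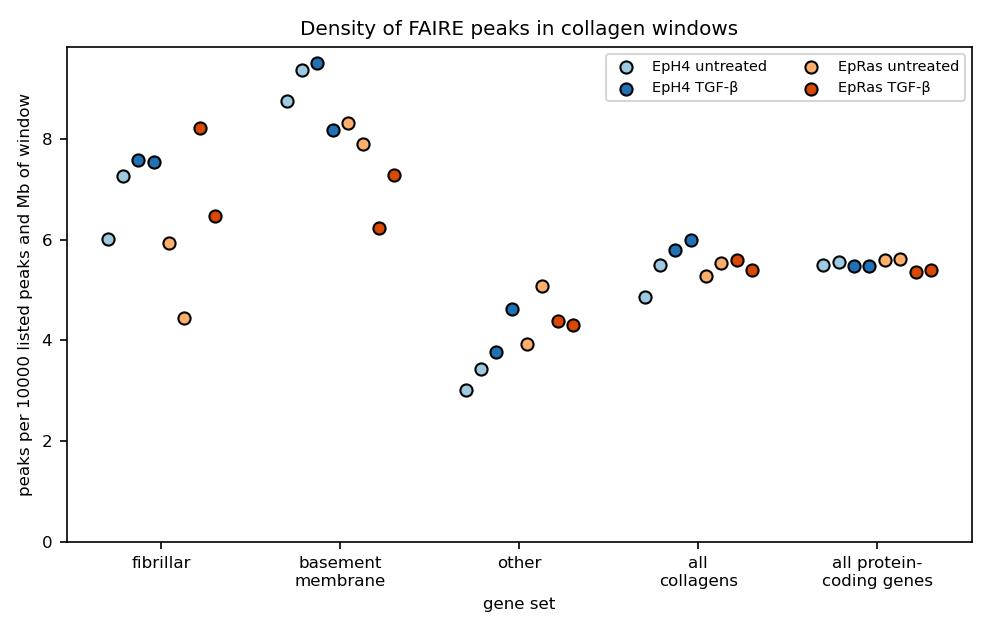
FAIRE peaks per 10000 listed peaks and Mb of window for the 3 collagen classes, all collagens and all protein-coding genes, as 1 point per library coloured by line and treatment. Basement membrane collagens range from 6.23 to 9.50, fibrillar from 4.44 to 8.21 and other collagens from 3.01 to 5.08, while all protein-coding windows stay between 5.36 and 5.61.

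Between the lines, fibrillar collagens had 9.21 ± 2.29 peaks per 10000 in EpRas and 10.4 ± 1.10 in EpH4 cells, a log2 ratio of −0.18. Basement membrane collagens had 10.9 ± 1.33 and 13.1 ± 0.890, a log2 ratio of −0.27, and other collagens 17.7 ± 1.93 and 14.8 ± 2.73, a log2 ratio of 0.25. With treatments joined, the lines overlapped in each of the 3 classes. Within each treatment, both EpH4 libraries had more basement membrane peaks per 10000 than both EpRas libraries. These were 12.8 and 13.7 against 12.2 and 11.6 untreated, and 13.9 and 12.01 against 9.15 and 10.7 with TGF-β. Untreated EpRas libraries were also lower for fibrillar and higher for other collagens, and the treated libraries of the lines overlapped in both. The basement membrane ratio turned to 0.27 among the higher-scored peaks, and the ratio of the other collagens to −0.015.

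With TGF-β, fibrillar collagens had 10.96 ± 1.07 peaks per 10000 against 8.69 ± 1.70 untreated, a log2 ratio of 0.33. Basement membrane collagens had 11.4 ± 2.04 against 12.6 ± 0.917, a log2 ratio of −0.14, and other collagens 17.1 ± 1.45 against 15.4 ± 3.57, a log2 ratio of 0.15. With the lines joined, treated and untreated libraries overlapped in each class. Within each line, both treated libraries had more fibrillar peaks per 10000 than both untreated ones. These were 11.2 and 11.1 against 8.83 and 10.7 in EpH4 cells, and 12.1 and 9.51 against 8.72 and 6.53 in EpRas cells. Basement membrane collagens were lower in both treated EpRas libraries (9.15 and 10.7 against 12.2 and 11.6) and overlapped in EpH4 cells. Other collagens were higher in both treated EpH4 libraries and overlapped in EpRas cells. The fibrillar ratio over both lines rested on *Col27a1*, which held 28 of the 130 fibrillar peaks, and without that gene it was −0.063. That ratio joined opposite orders in EpH4 and EpRas cells. Without *Col27a1*, both treated EpH4 libraries (5.58 and 5.54 peaks per 10000) lay below both untreated ones (6.42 and 9.93). Both treated EpRas libraries (10.2 and 8.32) lay above both untreated ones (8.13 and 6.53). Leaving out *Col27a1* also turned the fibrillar ratio between the lines from −0.18 to 0.27.

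The genes of collagens III and V, fibrillar collagens of stroma, held few peaks. *Col3a1*, the gene of collagen III, had 1 peak in treated EpH4 replicate 1 and 0 in the other 7 libraries. *Col5a2* had 1 peak in replicate 1 of each treated group, and *Col5a1*, its partner in collagen V, had 3 and 4 in replicate 1 of untreated and treated EpRas cells, 1 in EpH4 untreated, replicate 2, and 0 elsewhere. In EpRas cells the peaks of *Col5a1* were thus in replicate 1 alone. *Col6a1*, *Col10a1*, *Col11a1*, *Col25a1* and *Col26a1* had 0 peaks in all 8 libraries. Among these, *Col25a1* had the longest window of the collagens, 508 kb, and *Col6a1* a window of 57.4 kb.

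The window of *Col7a1*, the epithelial collagen of the anchoring fibrils, was alike across groups, with 2 to 4 peaks in each line and 4.21 per 100 kb on average. Of 3 peaks on average, 0.875 touched the gene span. Regions at the starts of the neighbours *Uqcrc1* and *Pfkfb4* were called in 8 and 7 libraries. Windows of 13 collagen genes overlapped that of another. Of the 148 regions, 3 lay in windows of more than 1 collagen gene, among them that shared by *Col4a3* and *Col4a4*.

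The enzymes, chaperones and receptors that make and bind collagen were given as a list of 33 genes. Of these, 32 (97.0%) had a peak in at least 1 library, against 71.8% of all protein-coding genes, and 6 (18.2%) had a promoter peak in all 8, against 10.6%. The 6 were *P4ha1*, *P4hb*, *Plod3*, *Colgalt1*, *Loxl4* and *Ddr1*, which hydroxylate, glycosylate, crosslink or sense collagen. *Pcolce2*, an enhancer of propeptide removal, was the 1 gene higher in all EpRas libraries (3.03%, beside the 3.06% of all genes), with 3 peaks in each against 1 or 2 in the EpH4 libraries. Its relative *Pcolce* was the 1 gene lower with TGF-β (3.03%, beside 0.0319%), with 4 peaks in each untreated and 3 in each treated library. The exact permutation p of 0.0286 did not pass the adjustment over all genes. Of 3.5 peaks on average in the *Pcolce* window, 1 touched the gene span, and the flanks also count sites of neighbours. None was higher in EpH4 cells and none was higher with TGF-β over both lines.

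Within EpH4 cells 7 genes of the list (21.2%) had more peaks in both treated libraries, beside 4.4% of all genes, and 2 (6.06%) had fewer, beside 2.35%. Within EpRas cells 5 (15.2%) had more, beside 8.61%, and 2 (6.06%) had fewer, beside 0.911%. *P4ha3*, a prolyl hydroxylase gene, had more in each line, with 0 and 0 untreated and 1 and 2 treated in EpH4 cells and 1 and 2 untreated and 3 and 3 treated in EpRas cells. *Loxl2*, a crosslinking enzyme gene, had peaks in the treated EpRas libraries alone, 3 and 1, and *Lox* had none in any library. *P4ha3*, *Loxl2* and *Lox* were named after their values were seen.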

How the data were processed

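FAIRE-seq was performed by the study in EpH4 and EpRas cells, with 2 biological replicates per group. The authors trimmed the reads to 36 bp, aligned them to the mm10 build using Bowtie2, and found peaks using MACS2 (version 2.0.9 in the submitters' processing notes). The authors deposited 1 peak list per library, and column 5 of each list holds a score whose unit was not stated, so the deposited score was used only to rank and filter peaks, as its percentile within a list. The lists hold no reads, so the sequencing depth is unknown and no counting interval was given.

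Gene spans and starts were from GENCODE vM21, and sequence from RefSeq GRCm38.p6. Peaks touching a gene span plus 20 kb by at least 1 bp were counted per library, over all 21951 protein-coding genes. A gene was called where all 4 libraries of one side exceeded all 4 of the other, with a two-sided exact permutation test over 70 assignments and Benjamini-Hochberg adjustment over all genes. Peaks overlapping across lists were merged into regions. A promoter peak had its midpoint within 2 kb of a start. Python 3.11.15, numpy 2.4.6, pandas 2.3.3 and pysam 0.24.0 were used, and the counting and calling were tested on simulated data. Changes were simulated only in genes with more peaks on average than any collagen called between the lines. Detection of changes at lower counts was not tested.

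The members and lists were chosen with earlier results of these data known. Values per library were given for collagens called by line or treatment, the 3 with the most peaks in each class and 11 well-known chains. Regions were named by pattern, at most the 5 best scored of each, and sequences for at most 2. Genes or regions outside this rule are said to be so where they appear, or were counted only. Alternatives covered equal list lengths, higher-scored peaks, other windows and scalings, midpoints, merging, a stricter promoter limit, a replicate block and leaving out each library.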

Additional observations from a re-analysis of the deposited data

How the results depend on the processing

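With lists of equal length, 2 EpRas-only, 2 EpH4-only and 1 EpRas TGF-β-only collagen regions were found, against 7, 1 and 4 (the last not among those 4), and 1 collagen (*Col4a4*) was higher with TGF-β. With higher-scored peaks, 1 collagen was higher in EpRas, 0 in EpH4 and 1 (*Col1a1*) with TGF-β, with 1 EpRas-only and 0 EpH4-only regions. The log2 ratios were then −0.48 (fibrillar), 0.27 (basement membrane) and −0.015 (other) for the lines and 0.98 (fibrillar) and −0.46 (basement membrane) for TGF-β. With the gene span alone, 0 collagens were higher in EpH4, 0 regions were EpH4-only, and the fibrillar ratios were −0.43 (lines) and 0.67 (TGF-β). With 50 kb on each side, 5 collagens were higher in EpRas (*Col8a1* and *Col14a1* added) and 0 in EpH4, 1 region was TGF-β-only and 7 were EpRas TGF-β-only, and the fibrillar TGF-β ratio was 0.10. Per 10000 listed peaks, 4 collagens were higher in EpRas (*Col8a2* added), 2 in EpH4 (*Col18a1* added) and 1 with TGF-β. Per 1000 peaks of the chromosome, 2 were higher in EpRas (*Col16a1* lost), 3 in EpH4 (*Col15a1* and *Col18a1* added) and 2 with TGF-β (*Col4a4* and *Col14a1*). The basement membrane ratios were then −0.042 (lines) and −0.54 (TGF-β). Leaving out *Col27a1*, chosen after seeing the data, gave fibrillar ratios of 0.27 (lines) and −0.063 (TGF-β). The causes were not tested.

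Leaving out 1 library at a time gave 3 to 5 collagens higher in EpRas (5 without EpH4 untreated, replicate 2, or EpH4 TGF-β, replicate 1), 1 higher in EpH4 and 0 to 2 higher with TGF-β (2 without EpH4 TGF-β, replicate 2, EpRas untreated, replicate 1, or EpRas TGF-β, replicate 2, and 1 without EpH4 untreated, replicate 1). Region counts ran from 7 to 8 (EpRas-only), 1 to 3 (EpH4-only, 3 without EpH4 untreated, replicate 1, and 2 without EpH4 TGF-β, replicate 2), 0 to 3 (TGF-β-only, 3 without EpH4 TGF-β, replicate 2, and 1 without EpH4 untreated, replicate 1, or EpRas TGF-β, replicate 2) and 4 to 29 (EpRas TGF-β-only, 29 without EpRas TGF-β, replicate 2, and 7 without EpRas TGF-β, replicate 1). With the replicate block, treated and untreated libraries compared within each replicate number, 2 collagens (*Col4a4* and *Col27a1*) were higher with TGF-β, and the line counts were as before. The differences between replicates 1 and 2 correlated between groups at −0.0545 to 0.00216 across regions. Such a correlation cannot show a difference shared by whole lists, so a batch by replicate number was not excluded. Replicate 1 had the longer list in treated EpH4 (17927 against 10821 peaks), untreated EpRas (17210 against 13784) and treated EpRas cells (27337 against 16833). In untreated EpH4 cells it had the shorter one (12462 against 13092). The exact permutation test with the block can give no p below 0.0556. The 17 named collagens gave 442 values for line and TGF-β under these settings, without the scalings by list or chromosome and without the replicate block. Of these values, 427 kept their call or their lack of one, 9 gained a call and 6 lost one. Most were not called in the main setting, and 23 uncalled values changed sign. No called value took the opposite sign, although that of *Col17a1* was 0 with the gene span alone and with 50 kb on each side. The loss of the *Col16a1* call with scaling by chromosome is not among the 6. A site below the peak limit is absent from a list.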
